A study of Mus musculus with 18 samples.

Results

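The collagen genes were taken as every probe set whose single gene symbol was Col, a number, the letter a and a further number (Col1a1, Col6a3 and so on). The rule found 46 probe sets for 42 genes, of 35382 probe sets on the array and 18781 genes with a symbol of their own. The members fell into 11 fibrillar collagens, 8 fibril-associated collagens, 6 network collagens of basement membranes, 6 beaded filament collagens, 4 transmembrane collagens, 3 short chain network collagens, 2 multiplexins and 2 others. Probe sets that name a collagen together with another gene (for Col7a1 and Col9a3) were not members. Col5a1, Col6a5, Col6a6 and Col20a1 had 2 probe sets each, and the one with the higher mean over all arrays stood for the gene.

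Collagens are extracellular proteins of 3 chains wound into a triple helix. Fibrillar types I, III and V give tendon, skin and the connective tissue between muscle fibres their tensile strength, type IV forms the sheet-like network of basement membranes around muscle fibres and capillaries, and type VI forms beaded filaments that link fibres and basement membranes, with mutations in its chains causing muscular dystrophies in humans. Newly made chains are hydroxylated on prolines and lysines in the endoplasmic reticulum, and without that hydroxylation the helix is not stable at body temperature. In striated muscle and heart the fibrillar chains come mainly from fibroblasts and the type IV chains largely from endothelial and muscle cells, whereas brain tissue holds little fibrillar collagen outside vessels and meninges.

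The study measured RNA of C57BL/6 mice that carry TN-XXL, a genetically encoded calcium indicator built around troponin C and a pair of fluorescent proteins, against their wild type littermates. The 6 groups were transgenic skeletal muscle, wild type skeletal muscle, transgenic heart, wild type heart, transgenic hippocampus and wild type hippocampus, with 3 Affymetrix arrays in each, 18 in all. The titles mark the transgenic arrays as +/+. The promoter that drives the indicator, the number of founder lines, the age and the sex of the mice are not stated in the labels, and nothing in the labels says that the arrays of a group came from separate mice, so p-values measure the spread between arrays, which may in part be technical.

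Values are log2 signals as the authors deposited them. Array medians ran from 2.44 to 2.49 in skeletal muscle, from 2.61 to 2.63 in heart and from 3.68 to 3.71 in hippocampus, and arrays of one group correlated at 0.982 to 0.993 over all probe sets. Tissue markers stood where the labels put them: the mean of 6 skeletal muscle genes was 11.5 to 11.6 on transgenic and 11.4 to 11.5 on wild type skeletal muscle arrays, and at most 4.34 on transgenic and 4.61 on wild type heart arrays. The mean of 5 heart muscle genes was 10.2 to 10.9 on transgenic and 9.88 to 10.5 on wild type heart arrays. A probe set's signal also depends on its probes, so signals below are compared between samples and not between genes. The RNA is from whole tissue, in which fewer cells of a type and less RNA per cell cannot be told apart.

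Col24a1 was the collagen gene with the clearest genotype difference, and its promoter is shown for that reason. Col24a1 encodes the chain of a fibrillar collagen described in developing bone and cornea of the mouse. The gene lies on chromosome 3 at 145292472 to 145552013 in assembly GRCm38.p6, on the plus strand. The 250 bases before its RefSeq start and the first 10 transcribed bases lie at chr3:145292222-145292481 on the plus strand. The capitals mark the only full cAMP response element (TGACGTCA, searched on both strands, a motif bound by CREB and ATF factors) in the window, which runs from base -7 to the first transcribed base.
Col24a1: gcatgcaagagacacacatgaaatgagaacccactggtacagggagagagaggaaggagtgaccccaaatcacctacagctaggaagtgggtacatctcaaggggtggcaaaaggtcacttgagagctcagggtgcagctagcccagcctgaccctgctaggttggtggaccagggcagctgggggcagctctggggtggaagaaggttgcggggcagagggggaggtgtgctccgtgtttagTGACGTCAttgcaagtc

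RefSeq promoter windows of 300 bases, credited to GRCm38.p6, were held for 34 of the 42 genes, with 37 windows. The element TGACGTCA occurred in 1 of these 37 windows, that of Col24a1, and in 588 of 32851 windows of all genes, or 1.79%. An AP-1 site (TGAGTCA, either strand) occurred in 1 collagen gene's window, that of Col6a1, against 5.2% of all windows. The E-box CACGTG, the motif of the circadian CLOCK and BMAL1 pair and of other factors, was in 0 of the 37 windows, against 7.15% of all windows. A GC box (GGGCGG, either strand) was in 59.5% of collagen windows and in 35.7% of all windows, and a CCAAT box (CCAAT, either strand) in 32.4% of collagen windows and in 37.4% of all. These matches describe letters in the windows only.

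Skeletal muscle was compared first, to ask which collagen genes differed between TN-XXL and wild type mice there. Of the 46 probe sets, 1 rose and 1 fell at a Benjamini-Hochberg adjusted p under 0.05 in limma, whereas 8.15% of all probe sets passed, 3.86% upward and 4.3% downward. The gene that rose was Col24a1 and the gene that fell was Col20a1. No chain of types I, III, IV or VI passed the test. The share of members with an unadjusted p under 0.05 was 17.4% (8 of 46), near the 19.1% of all probe sets.

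Col24a1 had signals of 4.56, 4.49 and 4.16 in transgenic skeletal muscle, against 2.85, 2.46 and 2.42 in wild type skeletal muscle. All 3 transgenic arrays lay well above all 3 wild type arrays, and wild type signals were near the array medians. The difference was 1.82 ± 0.13 (SE, n = 3 arrays a group; 95% interval 1.54 to 2.11), a 3.54-fold rise with a limma adjusted p of 6.96e-07. It was the 24th highest difference of 35382 probe sets in muscle. In heart the same probe set had 1.80, 1.72 and 2.01 in transgenic and 1.83, 1.94 and 1.86 in wild type arrays. In hippocampus it had 2.30, 2.65 and 2.49 in transgenic and 2.68, 2.58 and 2.64 in wild type arrays. Both of these pairs of groups overlapped, with differences of -0.03 in heart (95% interval -0.31 to 0.25) and -0.16 in hippocampus (-0.44 to 0.12). Neither passed the test.

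The genotype difference of Col24a1 itself differed between tissues. In limma's F test of the interaction of genotype and tissue it had F = 71.2 and an adjusted p of 3.70e-05, and it was the 1 collagen probe set of 46 that passed, against 3.89% of all probe sets. By single contrasts 2.55% of all probe sets passed for heart minus muscle and 3.4% for hippocampus minus muscle. The difference in heart was lower than that in muscle by 1.86 ± 0.19 on the log2 scale (SE; adjusted p = 9.96e-05), and the difference in hippocampus was lower than that in muscle by 1.98 ± 0.19 (SE; adjusted p = 3.14e-05). Heart and hippocampus did not differ from each other beyond the error in this respect (-0.12, 95% interval -0.52 to 0.28, hippocampus minus heart, a contrast in which 0.582% of all probe sets passed). The Col24a1 call in muscle held in every alternative fit and with every array left out in turn, with differences of 1.75 to 1.96 and adjusted p from 1.06e-06 to 9.83e-06 with an array left out, and an adjusted p of 0.00657 when only the 6 muscle arrays were fitted.

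Col20a1, a fibril-associated collagen first described in chick, had signals of 3.45, 3.47 and 3.46 in transgenic skeletal muscle, against 3.79, 3.96 and 3.98 in wild type skeletal muscle. The transgenic arrays were close together and all below the wild type arrays. It fell by 0.45 ± 0.08 on the log2 scale (SE, n = 3 a group), 1.37-fold, with a limma adjusted p of 0.00177, and this call was lost when only the 6 muscle arrays were fitted (adjusted p = 0.0648). The gene's other probe set had 2.75, 2.67 and 2.80 in transgenic and 2.75, 2.81 and 3.04 in wild type muscle, which overlapped, with a difference of -0.13 and an adjusted p of 0.683. The 2 probe sets of Col20a1 thus gave different calls, and their mean differed by -0.29. In heart the first probe set had 3.61, 3.54 and 3.64 in transgenic and 3.54, 3.75 and 3.56 in wild type arrays, which overlapped. The interaction test of Col20a1 did not pass (adjusted p = 0.0716).

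**Figure D1:**
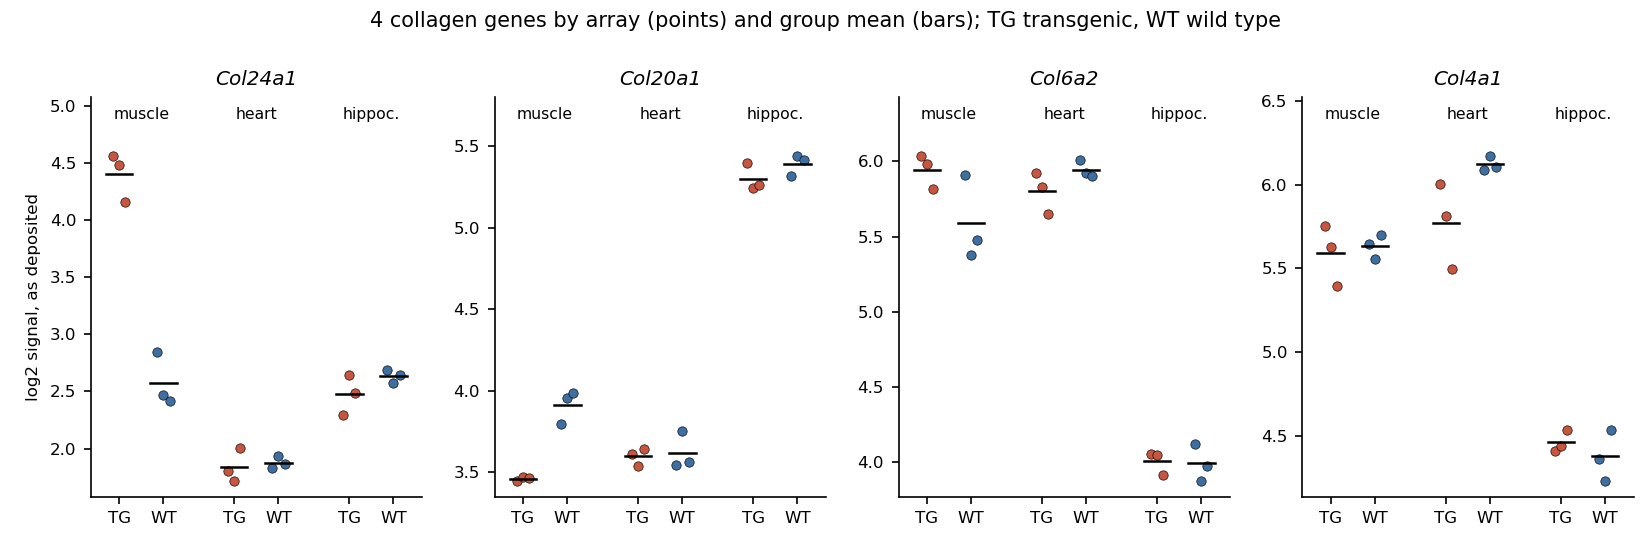
Log2 signals of Col24a1, Col20a1, Col6a2 and Col4a1 on each array (points) with group means (bars), transgenic (TG) left of wild type (WT) in skeletal muscle, heart and hippocampus. The transgenic muscle arrays of Col24a1 lie from 4.16 to 4.56, above the wild type muscle arrays at 2.42 to 2.85, while heart and hippocampus overlap.

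Among the other fibrillar collagens in muscle, none passed the test. Col1a1 and Col1a2 encode the chains of type I collagen, the main fibril former. Col1a1 had 7.10, 6.87 and 6.67 in transgenic and 6.80, 6.78 and 6.58 in wild type muscle (difference 0.16, 95% interval -0.12 to 0.44). Col1a2 had 7.30, 7.01 and 6.88 in transgenic and 7.20, 6.76 and 6.64 in wild type muscle (difference 0.20, -0.12 to 0.52), and Col3a1, the type III chain of distensible tissues, differed by 0.14 (-0.20 to 0.47). The groups overlapped for all 3 of these genes. Of the type V chains, which nucleate fibrils, Col5a3 had 3.45, 3.42 and 3.14 in transgenic and 3.56, 3.78 and 3.54 in wild type muscle. All its transgenic arrays lay below the wild type arrays, with a difference of -0.29 ± 0.10 (SE) that missed the threshold (adjusted p = 0.0947). Col5a1 differed by 0.04 and Col5a2 by -0.12.

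Of the beaded filament chains none passed. Col6a2 had 6.03, 5.98 and 5.82 in transgenic muscle and 5.91, 5.38 and 5.48 in wild type muscle. Wild type array 1 lay within the transgenic range and the other wild type arrays below it, and the difference of 0.36 ± 0.12 (SE) did not pass (adjusted p = 0.104). Without wild type array 1 the difference was 0.52 and the adjusted p 0.00774, and without wild type array 2 they were 0.25 and 0.352. Its partner chains gave Col6a1 0.15 (95% interval -0.06 to 0.37), with all transgenic arrays above the wild type ones, and Col6a3 0.11 (-0.22 to 0.44). Col6a5 differed by 0.34 (adjusted p = 0.132) on a signal below the array median. Its other probe set averaged 1.939 in transgenic and 1.936 in wild type muscle.

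Col12a1, a fibril-associated collagen of tendon and fascia, had 2.60, 2.51 and 3.05 in transgenic and 2.50, 2.07 and 2.37 in wild type muscle. Its groups did not overlap, but the nearest arrays were 2.51 and 2.50, and the difference of 0.41 ± 0.15 (SE) did not pass (adjusted p = 0.125). Col9a1, better known from cartilage, differed by 0.25 (adjusted p = 0.121). Its difference was 0.34 without transgenic array 3 (adjusted p = 0.0241) and 0.18 without transgenic array 2 (adjusted p = 0.364). The basement membrane chains Col4a1 and Col4a2 differed by -0.04 and -0.17, and the multiplexins Col15a1 and Col18a1, which are bound to basement membranes, by 0.01 and -0.13. In all, 5 probe sets had every transgenic array above every wild type array in muscle and 3 had every one below, or 17.4% of the 46. Over all probe sets the share was 21.9% in either direction, with 11.6% higher and 10.3% lower. Over the 42 genes the median difference in muscle was 0.04, against 0.01 over all genes, with 26 differences above and 16 below 0.

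The same question was asked of heart, where no collagen gene was called. Of the 46 probe sets, 0 passed, whereas 3.19% of all probe sets did, 1.57% upward and 1.62% downward, and 6 had an unadjusted p under 0.05 (13%, against 15% of all). The median difference was -0.08, against -0.0007 over all genes, with 10 of 42 differences above 0 and 32 below. Of the 46 probe sets, 5 had every transgenic array below every wild type array and 0 had every one above, against 9.35% and 9.19% over all probe sets. The 5 members with the smallest p were all lower in value in transgenic heart, and none passed.

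Among these was a type IV chain of the basement membranes. Col4a1 had 6.00, 5.81 and 5.49 in transgenic heart and 6.09, 6.17 and 6.11 in wild type heart. Wild type arrays lay close together, and the transgenic arrays all lay below them and farther apart. The difference was -0.35 ± 0.12 (SE; adjusted p = 0.157), and it was -0.21 without transgenic array 3 and -0.47 without transgenic array 1. Col4a2, encoded head to head with Col4a1, had 6.19, 6.07 and 5.85 in transgenic and 6.13, 6.36 and 6.49 in wild type heart, with overlap and a difference of -0.29 ± 0.12 (SE; adjusted p = 0.234). The genes lie on opposite strands of chromosome 8, and their 300-base RefSeq promoter windows share 78 bases. Col15a1 had 6.21, 5.91 and 5.69 in transgenic and 6.37, 6.18 and 6.16 in wild type heart, a difference of -0.30 (adjusted p = 0.403).

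Of the fibrillar chains in heart, Col27a1, a cartilage fibril collagen, had 2.59, 2.41 and 2.49 in transgenic and 2.96, 2.83 and 2.70 in wild type arrays. The groups did not overlap, and the difference of -0.33 ± 0.11 (SE) did not pass (adjusted p = 0.141). Col5a2 differed by -0.37 (adjusted p = 0.239), Col5a3 by -0.23 (adjusted p = 0.272) and the fibril-associated Col9a2 by -0.36 (adjusted p = 0.168), each with all transgenic arrays below the wild type ones. Of the type I and III chains, Col1a1 differed by -0.06 (95% interval -0.34 to 0.22), Col1a2 by 0.05 (-0.27 to 0.37) and Col3a1 by 0.18 (-0.16 to 0.52). Among the type VI chains Col6a1 differed by -0.13, Col6a2 by -0.14 and Col6a3 by -0.18, none of which passed.

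Arrays of one group stood in the same order over many of these genes. Over the 23 collagen genes with signals at or above the heart median, transgenic heart array 1 was the highest of its group in 17 and array 3 the lowest in 14. In muscle, with 26 such genes, transgenic array 1 was highest in 14 and array 3 lowest in 18, and wild type array 1 was highest in 14 and array 3 lowest in 14. In wild type heart no array was highest in more than 9 or lowest in more than 9. Ranks of the arrays over all probe sets were not counted, so these counts have no background beside them. The mean over all 42 genes was 3.34, 3.21 and 3.18 on the transgenic heart arrays in falling order, against 3.26 to 3.40 on the wild type heart arrays. The heart median moved to -0.05 or -0.13 with an array left out.

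Hippocampus gave 0 calls among the 46 probe sets and 0% over all probe sets in limma. Over the alternative settings run, 1 (weights for array quality) called 1 probe set of the table, which was no collagen, and the others called 0. Unadjusted p were under 0.05 for 3 collagen probe sets (6.52%, against 5.04% of all). Col27a1 had 3.27, 3.18 and 3.24 in transgenic and 3.62, 3.34 and 3.61 in wild type hippocampus, a difference of -0.29 (adjusted p = 0.913). Col4a3, a chain of the kidney and lung basement membranes, differed by -0.24, Col9a1 by -0.20, Col5a1 by -0.21 and Col11a1 by -0.19. The other probe set of Col5a1 averaged 2.61 in transgenic and 2.59 in wild type hippocampus, and the mean of both probe sets differed by -0.10. Of the 46 probe sets, 5 had every transgenic array below every wild type array and 0 above, against 7.37% and 5.95% over all. Col25a1, a transmembrane collagen made by neurons, had 5.60, 5.47 and 5.51 in transgenic and 5.28, 5.59 and 5.64 in wild type arrays, which overlapped.

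Over the 3 tissues together, the mean genotype difference was called for 2 of 46 probe sets, against 5.8% of all, and 6 had an unadjusted p under 0.05. Both called probe sets were those called in muscle: Col24a1 with a mean of 0.55 ± 0.08 (SE; adjusted p = 0.000476) and Col20a1 with -0.19 ± 0.05 (SE; adjusted p = 0.0235). The Col24a1 mean came from muscle and was no shared rise. Its signal averaged 1.84 in transgenic and 1.88 in wild type heart, and 2.48 in transgenic and 2.63 in wild type hippocampus. The Col20a1 mean was not called without transgenic hippocampus array 2 (adjusted p = 0.0561) or 3 (0.0534) or without wild type hippocampus array 2 (0.0519). Col5a3, lower in muscle and heart in value, had a mean of -0.19 ± 0.06 (SE; adjusted p = 0.0662), Col27a1 -0.20 (0.0895) and Col4a2 -0.19 (0.125).

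**Figure D2:**
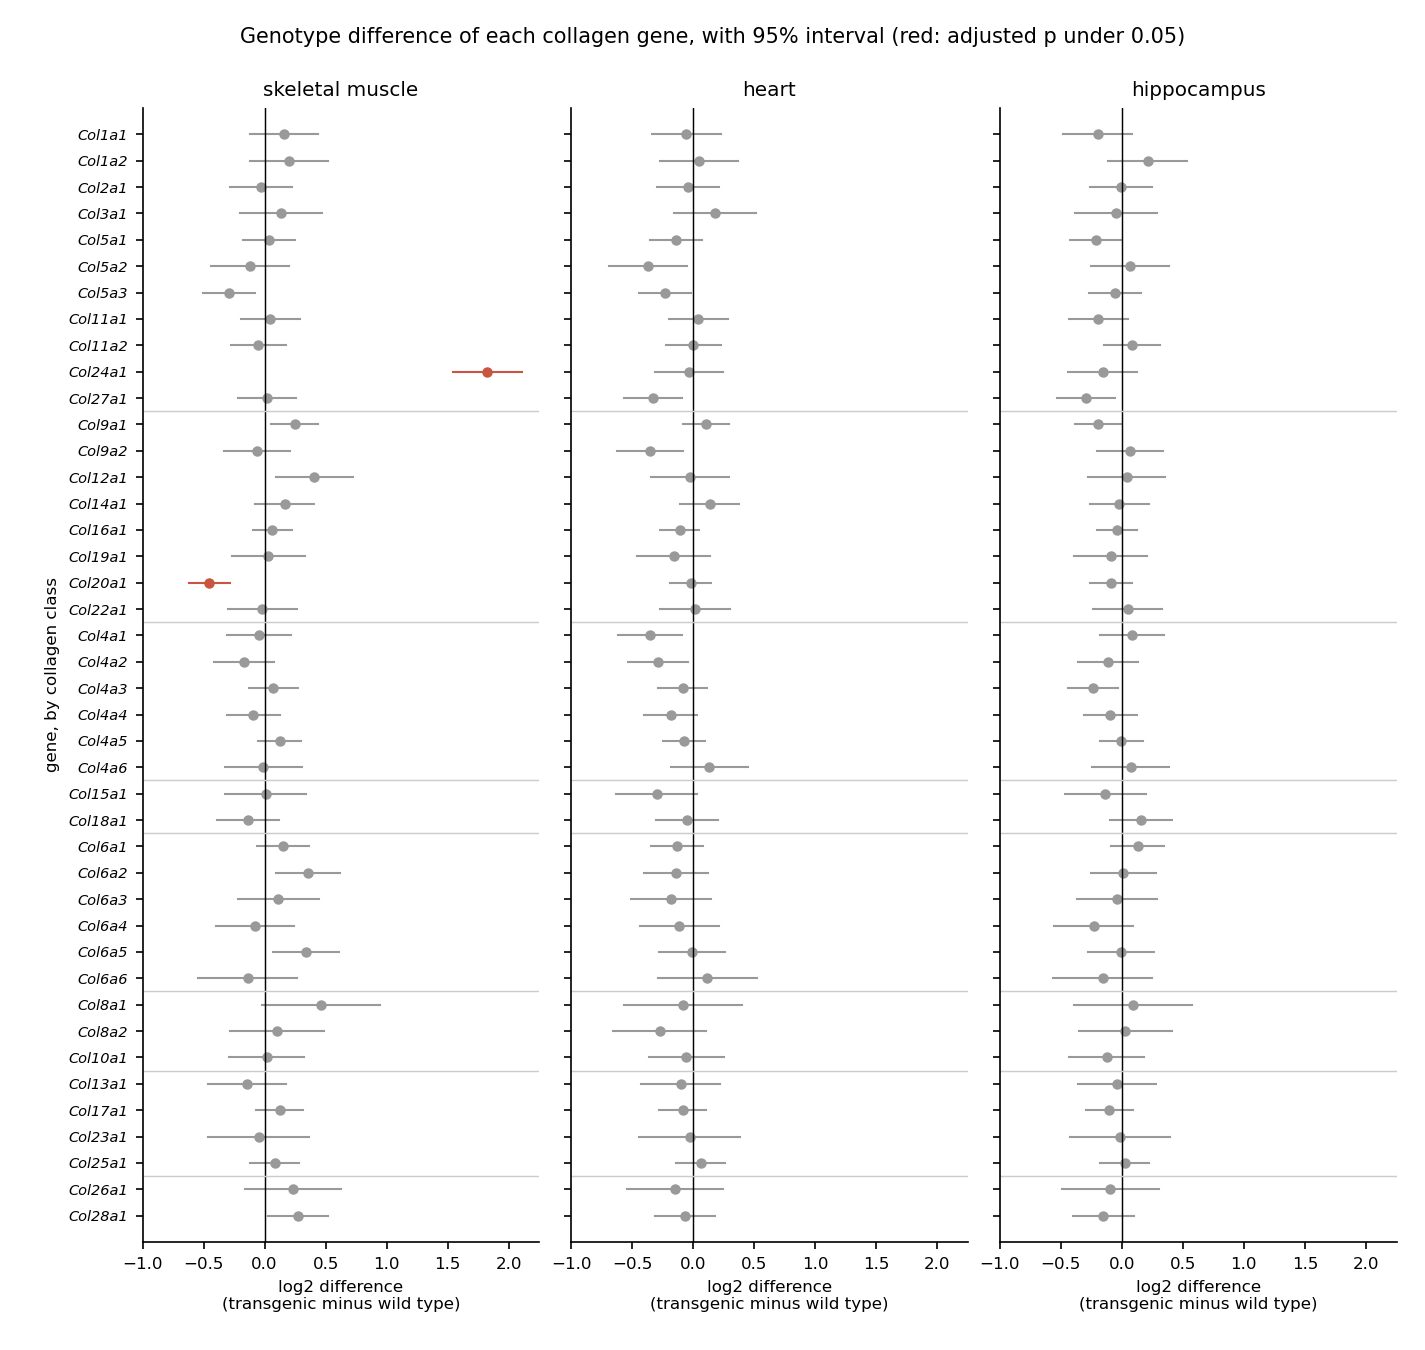
Genotype difference of each of the 42 collagen genes (log2, transgenic minus wild type) with its 95% interval from limma, in skeletal muscle, heart and hippocampus, ordered by collagen class from fibrillar at the top. Red marks an adjusted p under 0.05, which only Col24a1 (1.82) and Col20a1 (-0.45) in skeletal muscle reached.

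Genes for the enzymes and partners of collagen were taken as lists. The list of genes for folding and modification in the endoplasmic reticulum held 18 genes, of which 16 were measured. In muscle 4 of these fell, 1 rose and 11 did not pass, where 4.3% of all probe sets fell and 3.86% rose, with a median difference of -0.04 against 0.01 over all genes. The genes that fell included P4ha1, P4ha2 and P4hb, which encode subunits of prolyl 4-hydroxylase, whose product, hydroxyproline, stabilises the helix.

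P4ha1, a catalytic subunit, had 5.38, 5.72 and 5.62 in transgenic muscle, against 6.38, 6.49 and 6.92 in wild type muscle. The groups did not overlap, and the gene fell by 1.02 ± 0.12 on the log2 scale (SE; 2.03-fold; limma adjusted p = 4.79e-05). P4ha2, the other widely used catalytic subunit, had 4.49, 4.55 and 4.73 in transgenic and 5.22, 5.11 and 5.28 in wild type muscle, and fell by 0.61 ± 0.10 (SE; 1.53-fold; adjusted p = 0.00145). P4hb, protein disulfide isomerase and the shared other subunit, had 7.16, 7.32 and 6.99 in transgenic and 7.67, 7.53 and 7.63 in wild type muscle, and fell by 0.45 ± 0.09 (SE; adjusted p = 0.00340). No transgenic array of these genes reached a wild type array.

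Fkbp14, a prolyl isomerase of the endoplasmic reticulum that binds collagen, fell by 0.57 ± 0.13 (SE; adjusted p = 0.0117), a call lost without transgenic muscle array 3 (0.0600) or wild type muscle array 1 (0.0592). P3h2, a prolyl 3-hydroxylase that acts on basement membrane collagens, went the other way, with 5.83, 6.09 and 5.63 in transgenic and 5.03, 4.75 and 5.30 in wild type muscle. It rose by 0.82 ± 0.15 (SE; 1.77-fold; adjusted p = 0.00191). In a fit of the 6 muscle arrays alone P4ha1 (0.0376) and P4ha2 (0.0410) were still called, and P4hb (0.112), Fkbp14 (0.124) and P3h2 (0.0782) were not. In heart 0 of the 16 genes passed, where 3.19% of all probe sets did, and P4ha2 had a difference of -0.35 (adjusted p = 0.0962). The genotype difference of P4ha1 differed between tissues (F test of the interaction, adjusted p = 0.00498), whereas that test did not pass for P4ha2 (0.0753), P4hb (0.0932) or P3h2 (0.0803).

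**Figure D3:**
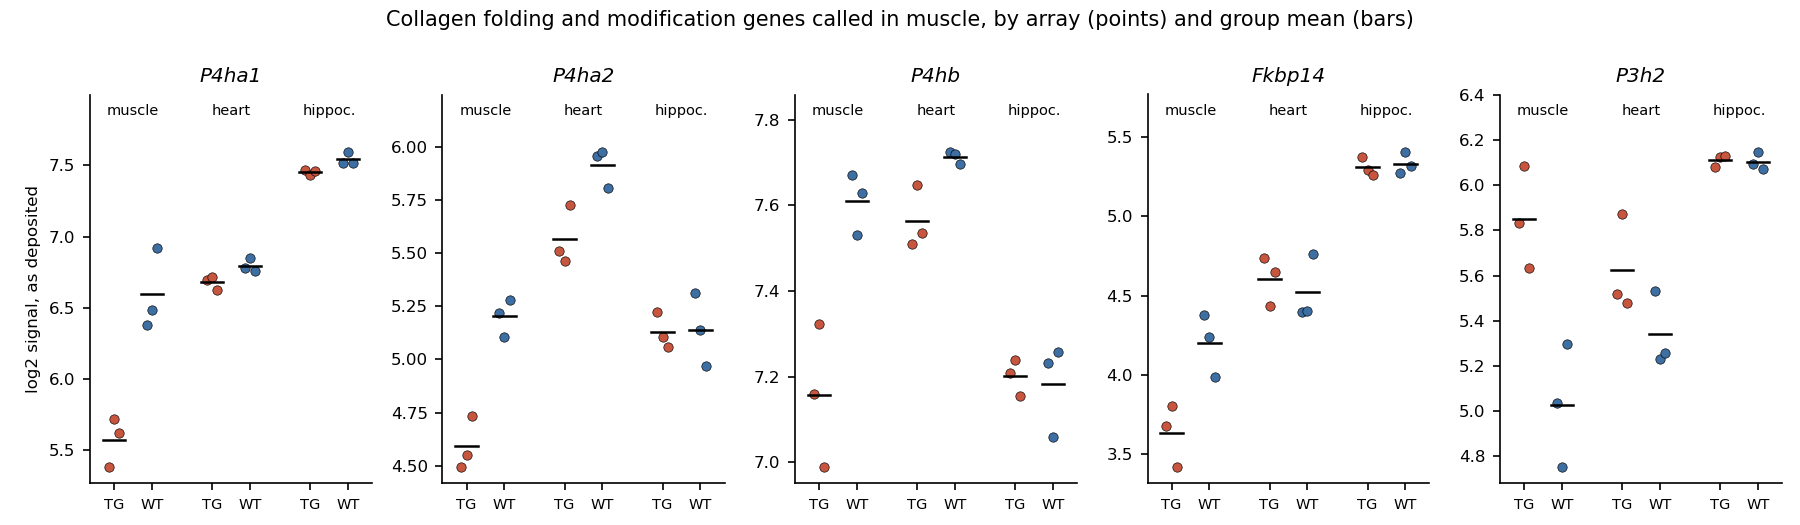
Log2 signals of P4ha1, P4ha2, P4hb, Fkbp14 and P3h2 on each array (points) with group means (bars), transgenic (TG) left of wild type (WT) in skeletal muscle, heart and hippocampus. In skeletal muscle the transgenic arrays of the first 4 genes lie below the wild type arrays and those of P3h2 above them.

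Of 14 genes for collagen export, processing and crosslinking, 12 were measured, and 0 passed in any tissue. Over all probe sets 8.15% passed in muscle, 3.19% in heart and 0% in hippocampus. The lowest p was that of Pcolce2, an enhancer of procollagen cleavage, in heart, with 6.47, 6.40 and 6.54 in transgenic and 5.99, 6.18 and 6.19 in wild type arrays (difference 0.35, adjusted p = 0.0690). Of 10 collagen receptor genes, 9 were measured and 1 passed in a single tissue, heart, where 3.19% of all probe sets passed. Itga11, the collagen-binding alpha 11 integrin of fibroblasts, had 2.45, 2.65 and 2.63 in transgenic heart against 3.26, 2.94 and 3.11 in wild type heart, and fell by 0.52 ± 0.12 (SE; adjusted p = 0.0280), a call that ended with 5 of the 18 single-array omissions and in a fit of the 6 heart arrays alone (0.162). Itga11 differed by -0.28 in muscle (adjusted p = 0.201) and -0.42 in hippocampus (0.627), and its mean over the 3 tissues fell by 0.41 ± 0.07 (SE; adjusted p = 0.00208), a call kept with every array left out (0.00183 to 0.00601). Of 10 degradation genes 1 passed in a single tissue, muscle, where 8.15% of all probe sets passed. Timp3, a matrix-bound inhibitor of metalloproteinases, had 8.33, 8.28 and 8.37 in transgenic and 7.98, 7.61 and 7.90 in wild type muscle, and rose by 0.49 ± 0.12 (SE; adjusted p = 0.0209), a call that ended with 3 omissions and with only the muscle arrays (0.105). Timp3 differed by 0.44 in heart (adjusted p = 0.0707) and 0.32 in hippocampus (0.913), and its mean over the 3 tissues rose by 0.42 ± 0.07 (SE; adjusted p = 0.00232), a call kept with every array left out (0.00176 to 0.00706). Fibril-binding proteoglycans gave 0 calls among 8.

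Of 9 measured basement membrane partners of type IV collagen, 1 passed in heart, where 1.62% of all probe sets fell. By value 8 of the 9 were lower in transgenic heart, and the share of all genes lower by value was not counted. Lama5, a laminin chain of vessels, had 6.27, 6.12 and 6.14 in transgenic heart against 6.96, 7.06 and 7.18 in wild type heart, and fell by 0.89 ± 0.10 (SE; 1.85-fold; adjusted p = 0.000282). In muscle Lama5 had 4.65, 4.70 and 4.28 in transgenic and 5.19, 5.04 and 5.18 in wild type arrays, and fell by 0.60 ± 0.10 (SE; adjusted p = 0.00173). In muscle Lamb2, another laminin chain, fell by 0.39 (adjusted p = 0.0131) and Agrn, a heparan sulfate proteoglycan of basement membranes and the neuromuscular junction, rose by 0.38 (adjusted p = 0.0367). Over all probe sets in muscle 4.3% fell and 3.86% rose. The Lamb2 call ended with 2 and the Agrn call with 7 of the single-array omissions. The Agrn call was also lost on centred arrays (adjusted p = 0.0503), after quantile normalization (0.0583), with the replicate block (0.0578) and with array weights (0.0556). In a fit of the 12 muscle and heart arrays neither Lamb2 (0.0582) nor Agrn (0.126) was called. With only the arrays of the tissue in the fit, the Lama5 calls were lost in heart (0.0520) and in muscle (0.0870), as were those of Lamb2 (0.191) and Agrn (0.172).

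Marker genes of cells that make collagen moved with genotype in part. Over all probe sets 8.15% passed in muscle, 3.19% in heart and 0% in hippocampus. Of 9 fibroblast markers 0 passed in any tissue, and their mean was 5.85 to 6.00 on transgenic and 5.69 to 6.06 on wild type muscle arrays, and 6.24 to 6.40 on transgenic and 6.32 to 6.51 on wild type heart arrays. Of 10 endothelial markers 4 fell in muscle (Tek, Egfl7, Emcn and Cldn5) and 2 in heart (Tek and Cldn5), where 4.3% of all probe sets fell in muscle and 1.62% in heart. All 10 differences were below 0 in both tissues, and the mean of the list was 5.97 to 6.36 on transgenic and 6.51 to 6.65 on wild type muscle arrays, and 7.24 to 7.47 on transgenic and 7.69 to 7.77 on wild type heart arrays. Of 7 macrophage markers Cd68 rose in muscle (0.93, adjusted p = 0.00165), where 3.86% of all probe sets rose. The mean of the 7 was 4.38 to 4.64 on transgenic and 3.84 to 4.35 on wild type muscle arrays. Of 8 pericyte and smooth muscle markers 0 passed in any tissue. Their mean was 6.23 to 6.33 on transgenic and 6.41 to 6.62 on wild type muscle arrays. It was 6.79 to 6.84 on transgenic and 6.83 to 6.85 on wild type heart arrays. In hippocampus it was 5.55 to 5.73 on transgenic and 5.32 to 5.59 on wild type arrays. Of 6 tendon genes 0 passed in muscle, with means of 3.14 to 4.10 on transgenic and 3.09 to 3.39 on wild type arrays, and Scx, a tendon transcription factor, fell in heart by 0.90 (adjusted p = 0.00230). The part of these in the collagen values was not tested.

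The tissues of wild type mice were compared for which collagens each expresses. Levels set across tissues carry the shift of the whole array: centring arrays on their medians moves every difference down by 0.17 for heart minus muscle, 1.26 for hippocampus minus muscle and 1.09 for hippocampus minus heart. Counts below are for the values as deposited, then for centred arrays, then after quantile normalization of all arrays. A gene is described as different only where all of these called it in one direction, unless stated. The share of all probe sets called alike under every scaling, or turned round by a scaling, was not counted. Gene counts of these kinds below therefore have no background beside them.

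Heart minus skeletal muscle was called for 19 of 46 probe sets, against 38.7% of all. By gene, 9 were higher and 9 lower as deposited, 6 and 12 after centring, and 5 and 13 after quantile normalization, where all probe sets gave 25.6% and 13.1%, 18.3% and 23.3%, and 19.3% and 18.8%. Under every scaling 5 genes were higher in heart and 9 lower. Of the 11 fibrillar genes, 6 were lower under every scaling (Col1a1, Col1a2, Col3a1, Col5a2, Col5a3 and Col24a1) and 0 higher. Of the 6 basement membrane chains 3 were higher under every scaling (Col4a2, Col4a4 and Col4a5) and 0 lower.

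Col3a1 had 5.33, 5.51 and 5.48 in wild type heart, against 6.70, 6.39 and 6.33 in wild type skeletal muscle. It was lower by 1.04 ± 0.16 as deposited (SE; 2.05-fold; limma adjusted p = 6.81e-05). Col1a2 had 5.91, 5.90 and 5.93 in heart and 7.20, 6.76 and 6.64 in muscle, with a difference of -0.95, and Col1a1 a difference of -0.84. Col6a3, the large type VI chain, averaged 5.10 ± 0.12 in heart and 6.09 ± 0.20 in muscle (SD, n = 3 each), a difference of -0.99, whereas its partner Col6a1 differed by 0.06 and Col6a2 by 0.36. Of these 3 chains, which assemble together, Col6a3 was lower under every scaling, and Col6a2 was higher as deposited (adjusted p = 0.0320) but not after centring (0.238).

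Col8a1, a short chain network collagen of vessels and of the heart, had 4.94, 4.92 and 5.18 in wild type heart, against 3.57, 2.95 and 3.40 in wild type muscle, and was higher by 1.71 ± 0.23 as deposited (SE; 3.26-fold; adjusted p = 1.73e-05). Col4a5, a type IV chain encoded on the X chromosome, had 3.38, 3.33 and 3.29 in heart and 2.07, 1.94 and 1.97 in muscle, a difference of 1.34 ± 0.08 (SE; adjusted p = 2.74e-09). Col15a1 was higher by 1.03, Col4a4 by 0.73 and Col4a2 by 0.69. Col4a1 was higher by 0.49 as deposited and by 0.31 centred but not after quantile normalization (0.24, adjusted p = 0.134) nor over the transgenic arrays (0.18, adjusted p = 0.280). Endothelial markers were higher in wild type heart in 10 of 10 genes as deposited, with means of 7.69 to 7.77 in heart and 6.51 to 6.65 in muscle. Their part in the type IV and Col15a1 levels was not tested.

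Hippocampus minus skeletal muscle was called for 41 of 46 probe sets, against 78.2% of all. By gene, 23 were higher and 14 lower as deposited, 7 and 31 after centring, and 6 and 23 after quantile normalization, where all probe sets gave 70.1% and 8.1%, 20.6% and 57.5%, and 22.6% and 29.6%. The balance of the list thus turns with the scaling, and 12 genes called in one direction as deposited were called in the other under another scaling. Under every scaling 6 genes were higher and 14 lower. The higher ones were Col11a1, Col19a1, Col6a4, Col23a1, Col25a1 and Col26a1, and the lower ones included Col1a1, Col1a2, Col3a1, Col5a2, Col5a3, Col4a1, Col15a1, Col18a1 and 4 type VI chains.

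Col25a1 had 5.28, 5.59 and 5.64 in wild type hippocampus, against 1.77, 1.87 and 1.71 in wild type skeletal muscle and 1.94, 2.01 and 1.85 in wild type heart. Its protein is found in amyloid plaques of human Alzheimer brains. It was higher than in muscle by 3.72 ± 0.09 as deposited (SE; adjusted p = 6.93e-15), by 2.46 centred and by 2.61 after quantile normalization. Col23a1, another transmembrane collagen, was 4.27-fold higher than in muscle as deposited, with log2 differences of 0.84 centred and 0.76 after quantile normalization. In the order deposited, centred and quantile, the log2 difference of Col19a1, which hippocampal interneurons express in the mouse, was 1.62, 0.36 and 0.61. In that order Col26a1 gave 2.06, 0.80 and 0.78, Col6a4 gave 1.81, 0.55 and 0.85, and the fibrillar Col11a1 gave 1.77, 0.51 and 0.68.

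At the other end Col3a1 had 3.21, 3.03 and 3.20 in wild type hippocampus, against 6.70, 6.39 and 6.33 in wild type muscle, lower by 3.33 ± 0.16 as deposited (SE; adjusted p = 1.89e-11) and by 4.59 centred. Col6a3 had 2.91, 2.78 and 2.66 in hippocampus and 6.32, 6.01 and 5.96 in muscle. Both sat below the hippocampal array median. Col1a2 was lower by 2.45, Col1a1 by 2.28, Col15a1 by 1.88 and Col6a2 by 1.60 as deposited. Markers of meninges were at a median of 5.43 and those of choroid plexus at a median of 3.72 over the wild type hippocampus arrays, and their part in the remaining fibrillar signals was not tested.

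Hippocampus minus heart was called for 40 of 46 probe sets, against 76.8% of all, with 21 genes higher and 15 lower as deposited, 8 and 30 centred and 8 and 22 after quantile normalization, where all probe sets gave 67.3% and 9.46%, 19.2% and 54.8%, and 21.5% and 27.2%. Under every scaling 8 genes were higher, the 6 above with Col12a1 and Col20a1, and 15 lower. Col12a1 averaged 3.56 in wild type hippocampus and 2.12 in wild type heart, each below the median of its tissue. Col20a1 had 5.32, 5.44 and 5.42 in wild type hippocampus, against 3.54, 3.75 and 3.56 in wild type heart, higher by 1.77 ± 0.08 as deposited (SE; adjusted p = 1.08e-11), and by 1.44 as the mean of its 2 probe sets. Col15a1 was lower by 2.91, Col6a3 by 2.32, Col3a1 by 2.29, Col8a1 by 2.24, Col6a2 by 1.95 and Col4a1 by 1.74. Over all 42 genes, muscle was the wild type tissue of highest signal for 9, heart for 9 and hippocampus for 24 as deposited, but for 21, 14 and 7 genes in that order on centred arrays.

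**Figure D4:**
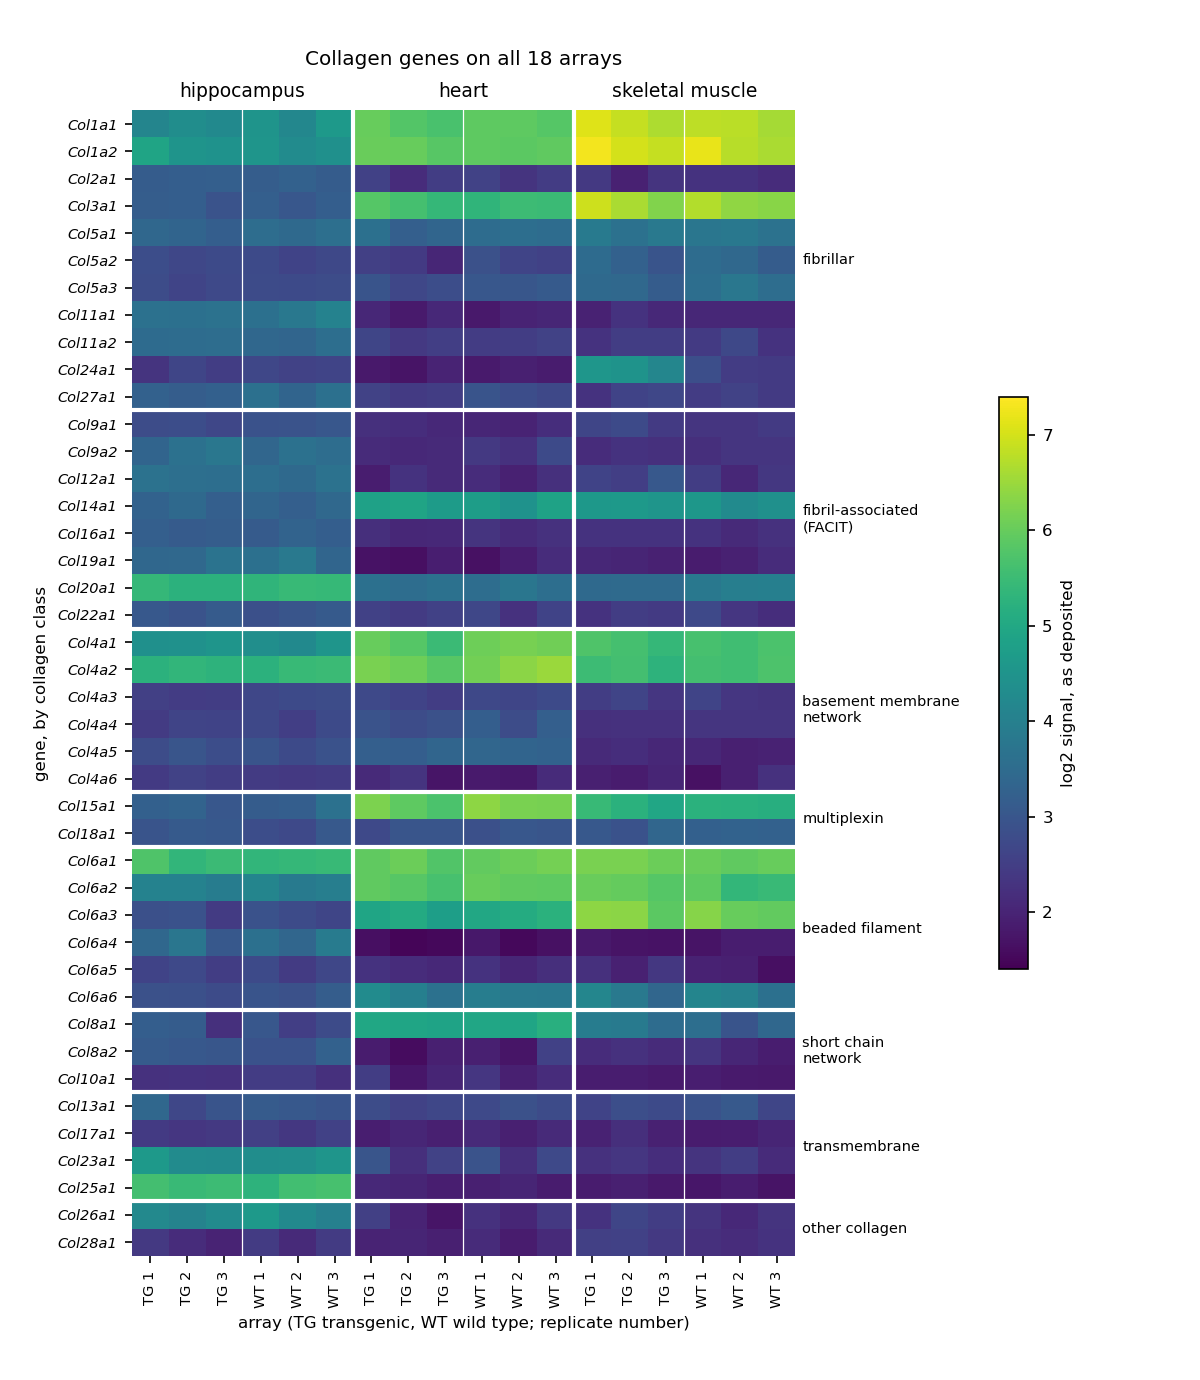
Log2 signals as deposited of the 42 collagen genes (rows, by class) on all 18 arrays (columns, transgenic TG left of wild type WT in each tissue). Col25a1 (5.50 mean in wild type hippocampus) is bright in hippocampus alone, Col1a1, Col1a2 and Col3a1 are brightest in skeletal muscle, and Col24a1 is raised in the 3 transgenic muscle arrays.

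**Figure D5:**
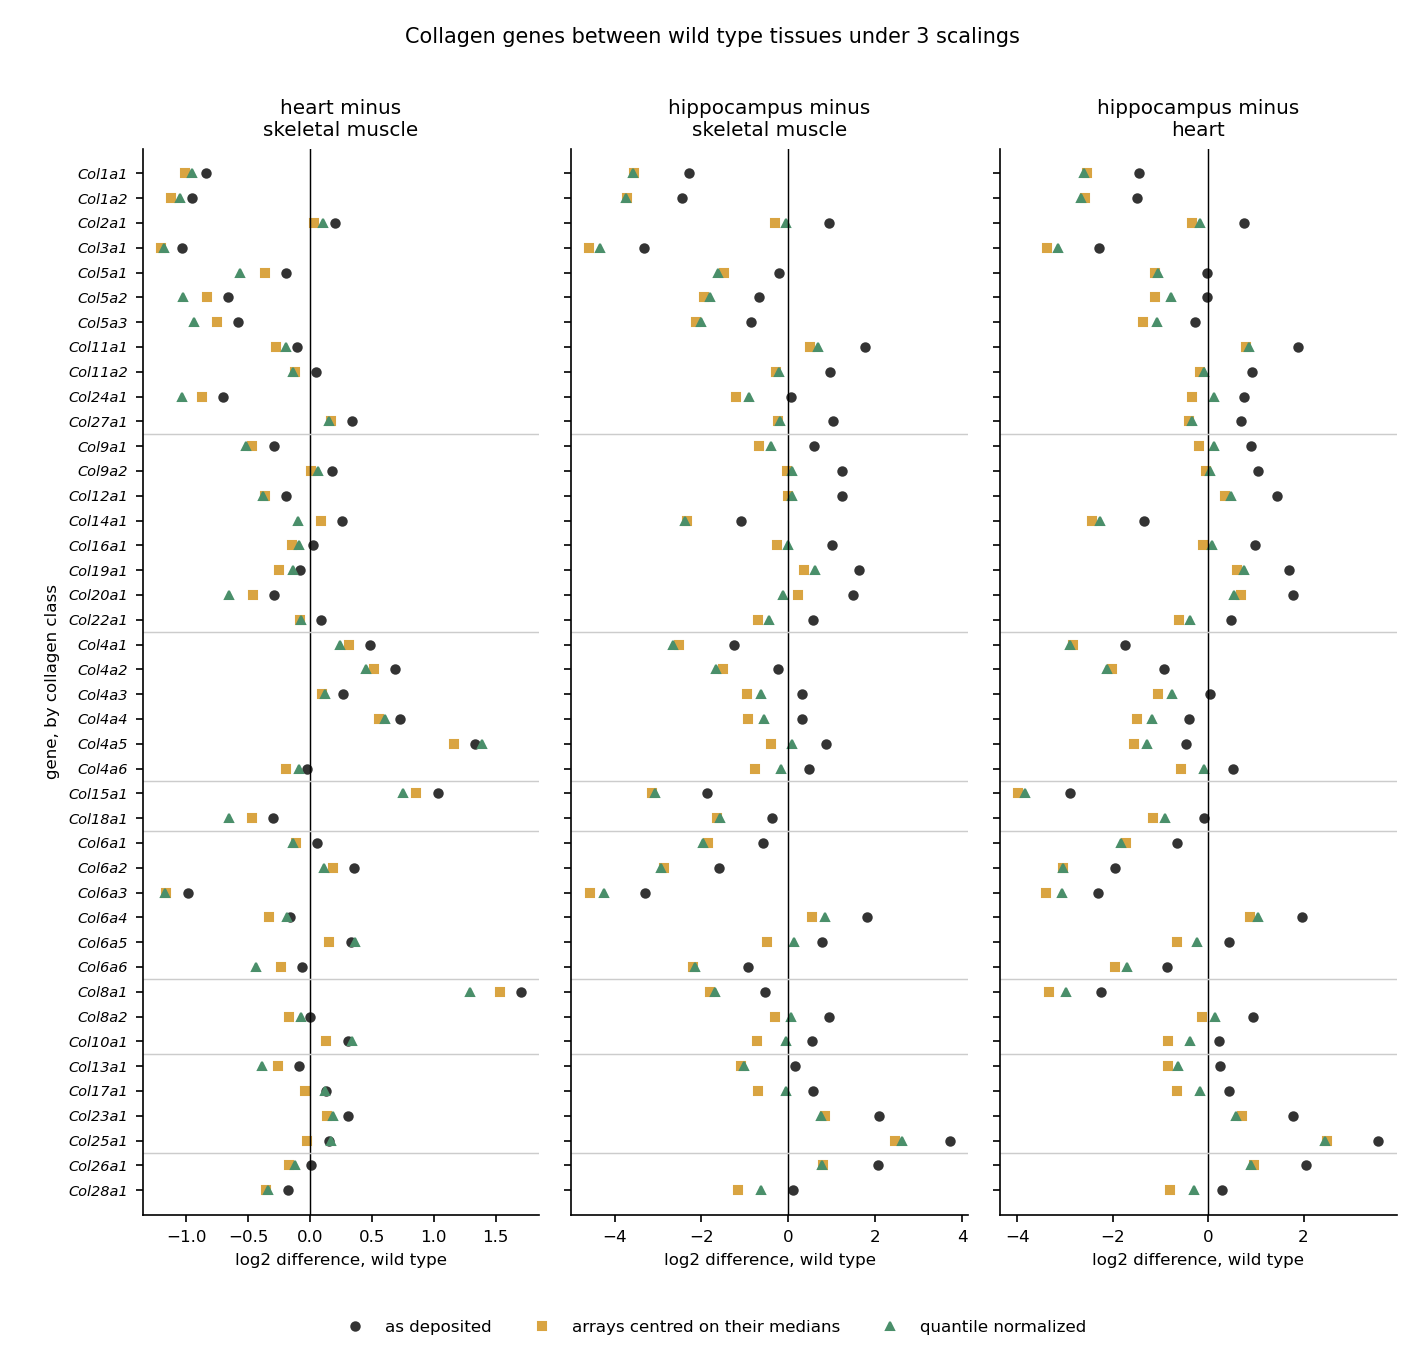
Log2 difference of each collagen gene between wild type tissues for values as deposited (circles), arrays centred on their medians (squares) and quantile normalized arrays (triangles), genes ordered by class from fibrillar at the top. Col3a1 stays near -1.04 to -1.21 between heart and muscle, while differences against hippocampus move left by 1.26 (muscle) or 1.09 (heart) when arrays are centred.

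The same tissue differences over the transgenic arrays were called for 17 of 46 probe sets in heart minus muscle, against 39% of all, for 41 in hippocampus minus muscle, against 76.4% of all, and for 39 in hippocampus minus heart, against 75.2% of all. Col24a1 was lower in heart than in skeletal muscle, by a log2 difference of -2.56 ± 0.13 in transgenic mice (SE; adjusted p = 4.17e-10) and -0.70 ± 0.13 in wild type mice (SE; adjusted p = 0.000476). Between hippocampus and muscle, the difference was -1.92 ± 0.13 in transgenic mice (SE; adjusted p = 1.98e-09), and in wild type mice the difference was 0.06 (95% interval -0.23 to 0.34), both as deposited. The wild type difference turned with the scaling, at -1.20 on centred arrays (adjusted p = 6.59e-07) and -0.91 after quantile normalization (adjusted p = 3.86e-05).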

How the data were processed

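RNA of 18 tissue samples was measured on Affymetrix whole-transcript arrays. The authors deposited 1 log2 value per probe set and array. The submitters' processing notes name RMA, which corrects background, normalizes arrays against each other and summarises probes, and R 2.10.0. Whether all tissues were normalized together is not given in the sources used here, and array medians differ by tissue. Gene names came from the platform annotation, which gave 1 symbol for 21153 probe sets, several for 1867 and none for 12362.

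One linear model with 6 group means was fitted with limma 3.58.1 (R 4.3.3) to all 35382 probe sets as deposited, with 12 residual degrees of freedom and 2.67 from the prior, so a probe set's error in a tissue also reflects its spread in the others. Tests were two-sided, moderated t or F, with Benjamini-Hochberg adjustment over all probe sets, and called at an adjusted p under 0.05. The script was tested on simulated data. The number of arrays limits the precision.

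Members, classes and lists were chosen with earlier results of these data known. Named were 12 collagens of a fixed list, every called member or the 5 with the smallest p, and the 6 highest and 6 lowest called in each tissue comparison. Of each other list the rule was up to 4 members a contrast, but all 5 folding genes called in muscle were named. Some further members, such as Col12a1 and Col6a5 in muscle and Col5a3 in heart, were named outside these rules. Alternatives were other array sets, replicate or random blocks, centring, quantile normalization, a trended prior, array weights, a filter on dim probe sets, stricter thresholds and each array left out. Nothing in the labels says that replicate numbers pair samples. Deviations of same-numbered arrays in different groups correlated at -0.08 to 0.05, with 0 of 45 over 0.1. Such correlations cannot show whether same-numbered samples came from the same mouse, since tissues of one mouse need not deviate alike.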

Additional observations from a re-analysis of the deposited data

Results flagged for a closer look

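The genotype difference of Col24a1 differed between tissues, by the moderated F test of the interaction of genotype and tissue (adjusted p = 3.70e-05 over all probe sets). The transgenic minus wild type difference was 1.82 in skeletal muscle, -0.03 in heart and -0.16 in hippocampus. No explanation of it was tested. Groups of 3 arrays are too small for a test of single arrays that stand apart.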

How the results depend on the processing

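As reported, 2 collagen probe sets were called in skeletal muscle. This count was 1 from the 6 muscle arrays alone, 4 without dim probe sets, 1 at a difference of at least 1.5-fold, and 2 to 3 with an array left out. Over the whole table the muscle calls numbered 2884, against 838 from the muscle arrays alone, 3694 without dim probe sets, 1606 at the stricter threshold and 1289 at 1.5-fold, and the heart calls 1128, against 36 from the heart arrays alone. The mean genotype difference gave 2 calls, 1 at an adjusted p under 0.01, 0 at 1.5-fold, and 1 to 3 with an array left out. Over the whole table it gave 2052, against 1024 at the stricter threshold and 196 at 1.5-fold. The interaction gave 1 call, 2 without dim probe sets, and 1 to 2 with an array left out. The higher count came without transgenic muscle array 3, wild type muscle array 1 or wild type heart array 2. Interaction calls over the whole table numbered 1376, and 1794 without dim probe sets. Wild type heart minus skeletal muscle gave 19, 11 at 1.5-fold and 14 to 21 with an array left out. The whole table gave 13697 for this contrast, and 8171 at 1.5-fold. The heart median of -0.08 ranged over -0.13 to -0.0499 with an array left out, lowest without transgenic heart array 1. The replicate block is a pairing that the labels do not state. With it muscle gave 3 calls, heart 0, hippocampus 0, the mean 2 and the interaction 1. The wild type tissue differences gave 21 (heart minus muscle), 41 (hippocampus minus muscle) and 40 (hippocampus minus heart). Over the whole table that block gave 2734 in muscle, 1016 in heart, 0 in hippocampus, 1947 for the mean and 1208 for the interaction. For the tissue differences it gave 13508, 27544 and 27128 in the same order. No called direction turned round under these alternatives for the same probe set, except the hippocampus differences under other scalings given above. The causes of these shifts were not tested. Signals near or below the array median, such as those of Col24a1 in wild type muscle (near it) and in heart and hippocampus (below it), may lie near background, which the deposited values do not give, and this limits what differences there can show.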
